A study of Mus musculus with 8 samples.

Results

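The genes described are 9 dual specificity phosphatases that act on mitogen-activated protein (MAP) kinases, namely Dusp1, Dusp2, Dusp3, Dusp4, Dusp5, Dusp6, Dusp7, Dusp10 and Dusp16. Every probe carrying 1 of these names in the non-normalized array table was taken, on all arrays. This gave 18 of the 25697 probes and covered 8 of the 9 genes, out of 17912 gene names in the table. Expression of Dusp5 is not analysed here. RNA came from RAW264.7 cells, a macrophage line of Balb/c origin, harvested 24 h after transfection of either a scrambled control siRNA or an siRNA against Ypel5. Both groups had the transfection itself in common, each had 4 Illumina bead arrays, and all 8 arrays share the number of 1 chip in their titles. The labels name 1 siRNA product against Ypel5 and 1 scrambled product as control, and nothing in the labels says that the replicates were separate cultures, so p-values measure the spread between these arrays, which may be technical. The study's title concerns Ypel5 as a negative regulator of TBK1, IKBKE and interferon-beta, and the comparison here asks which of these phosphatase transcripts differed between the siRNA groups.

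MAP kinases carry signals from receptors, including the Toll-like receptors of macrophages, through paired phosphorylations of a threonine and a tyrosine in their activation loop. Dual specificity phosphatases remove both phosphates and so end the signal. Many of their genes are themselves switched on by MAP kinase activity, which makes them feedback inhibitors. In macrophages Dusp1 is known for limiting cytokine production after Toll-like receptor stimulation. Members differ in the kinase they prefer and in where in the cell they act, and they are taken here by these roles.

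Values are intensities after background correction, quantile normalization and log2. A probe counted as detected on an array where its deposited detection p-value was under 0.05. The 11364 probes detected on 4 or more of the 8 arrays, counted over both groups, were tested with limma, and a probe passed at a Benjamini-Hochberg adjusted p under 0.05 over all of them. The arrays detected between 11249 and 11612 probes, and their number limits the precision. Scrambled arrays had a median intensity of 189.2 ± 6.26 and Ypel5 siRNA arrays one of 209.5 ± 14.6 (SD, n = 4 each). An exact permutation test, two-sided, gave p = 0.0857 for this difference, and with 4 against 4 arrays it cannot go below 0.0286. The Ypel5 probe was detected on 0 of the 8 arrays (log2 4.70 ± 0.095 and 4.79 ± 0.10, SD, n = 4 each, exact permutation p = 0.257), so the arrays do not check the knockdown. Of 9 macrophage marker genes 7 were detected on all 8 arrays, including Csf1r, Cd68, Adgre1, Lyz2 and Spi1, while Itgam was detected on 1 array and Mertk on 0. Of these 7 genes 1 rose, the Fc receptor gene Fcgr3 (log2 0.87, limma adjusted p = 0.00367), and 0 fell. The summed signal of all macrophage marker probes was 126498 to 129010 on scrambled arrays and 127386 to 135948 on Ypel5 siRNA arrays, and its part in the phosphatase results was not tested. Of the T cell, B cell, dendritic cell, fibroblast, epithelial and neutrophil markers, only Lck, Cdh1 and S100a8 passed the filter, none of which passed the test, and Cd3e, Flt3, Col1a1 and Krt8 were detected on 0 arrays.

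Of the phosphatase genes 3 were higher after the Ypel5 siRNA, namely Dusp6, Dusp16 and Dusp4. Dusp6 rose 1.43-fold on its brighter and 1.81-fold on its dimmer probe, Dusp16 1.33-fold and Dusp4 1.26-fold on their brightest probes. No other probe of Dusp16 or Dusp4 passed. Both Dusp6 calls held under every alternative setting that gave a value. The Dusp16 call was lost in 3 of 19 such settings and the Dusp4 call in 10 of 19. Of the 18 probes 14 passed the detection filter, which left 7 genes. By the brightest tested probe 3 of the 7 genes rose, against 2.50% of all 8154 genes. Probes of the same gene are not independent of each other. Of these 14 probes 4 rose, 0 fell and 10 did not pass, against 3.70% of all tested probes past the threshold in either direction, 2.25% higher and 1.45% lower. At an unadjusted p under 0.05, 6 of the 14 were higher and 1 was lower, against 19.6% of all tested probes in either direction, 9.59% higher and 10.0% lower. The median change of the 14 probes was log2 0.14, beside log2 -0.01 over all tested probes, and 8 of the 14 lay above 0. These 8 include Dusp4 ILMN_2608995, which met the filter only with its detections in the group where it was higher. The groups did not overlap for 5 of the 14 probes, against 14.0% of all tested probes, and 4 of these 5 were higher after the Ypel5 siRNA, against 7.02%. The members were chosen with earlier results of these data known, so these shares are descriptive and do not test the family. In RNA from whole cultures a change in the number of cells that express a gene and a change in RNA per cell cannot be told apart.

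**Figure D1:**
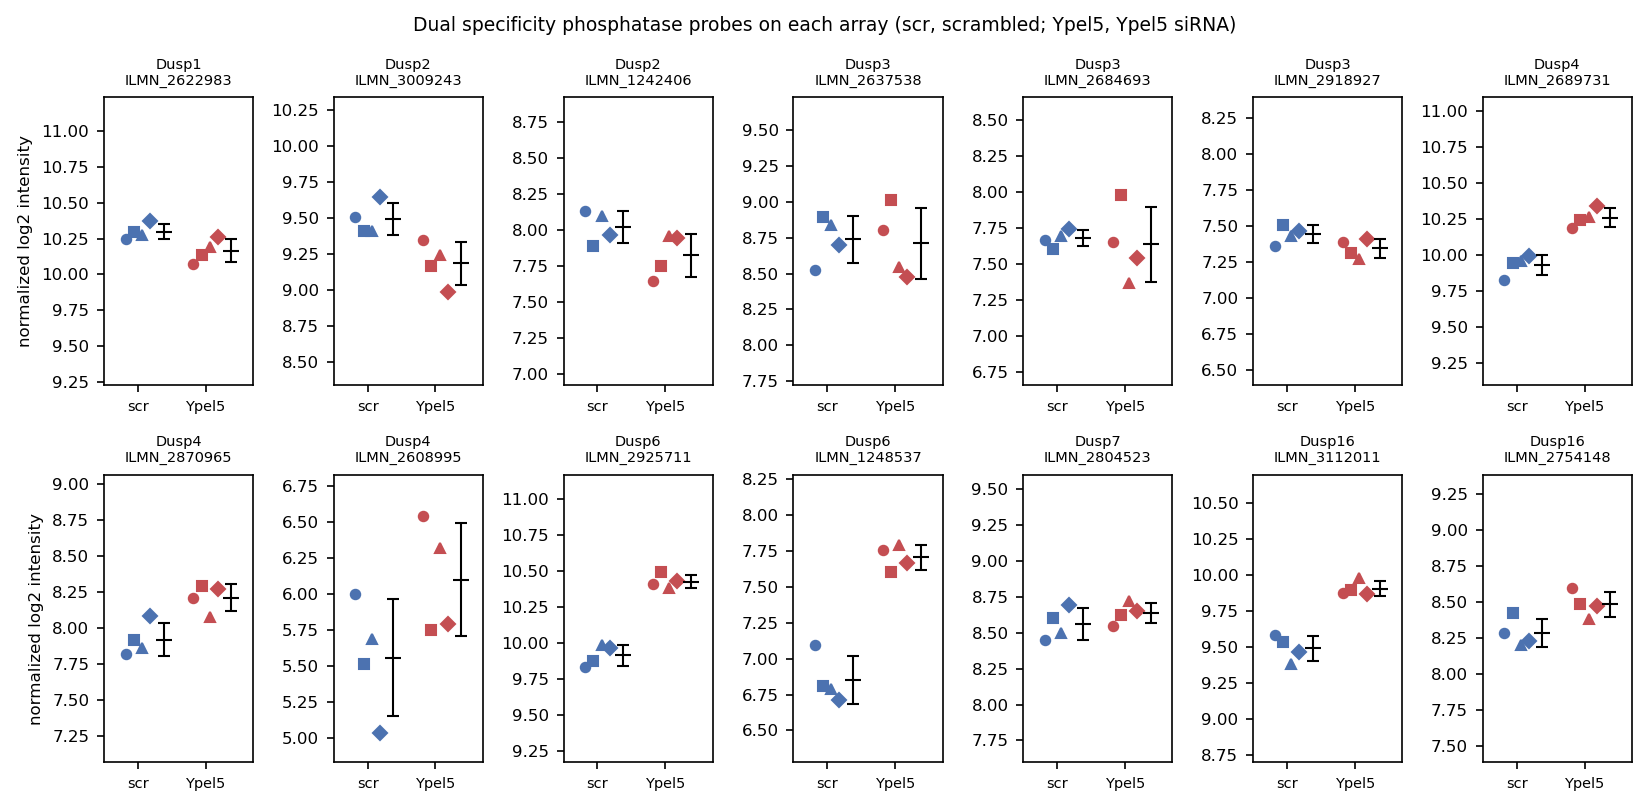
Normalized log2 intensity of the 14 phosphatase probes that passed the detection filter, 1 panel a probe, with scrambled arrays in blue and Ypel5 siRNA arrays in red, symbols for replicates 1 to 4 (circle, square, triangle, diamond) and the mean with its SD in black. Each vertical axis spans the same log2 range but has its own level, and the groups lie apart for both Dusp6 probes, Dusp16 ILMN_3112011, Dusp4 ILMN_2689731 and Dusp2 ILMN_3009243.

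The promoters of Dusp6 and Dusp16 are shown because these genes rose, with that of Dusp1, which did not rise, beside them. The windows hold 250 bases before and 50 bases from the RefSeq transcript start (GRCm38.p6) and are printed 5′ to 3′ on the gene's strand. Of the 9 genes 8 were matched by symbol, and Dusp4 was not. Capitals mark matches to a motif searched on both strands. The Dusp6 window lies at chr10:99262981-99263280 (plus strand), that of Dusp16 at chr6:134792579-134792878 (minus strand) and that of Dusp1 at chr17:26508423-26508722 (minus strand).
Dusp6: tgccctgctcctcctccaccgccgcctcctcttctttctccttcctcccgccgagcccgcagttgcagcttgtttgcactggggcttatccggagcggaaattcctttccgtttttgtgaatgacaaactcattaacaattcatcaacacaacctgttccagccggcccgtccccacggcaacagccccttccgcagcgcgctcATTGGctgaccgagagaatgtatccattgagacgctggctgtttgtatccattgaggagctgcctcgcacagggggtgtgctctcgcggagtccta
Dusp16: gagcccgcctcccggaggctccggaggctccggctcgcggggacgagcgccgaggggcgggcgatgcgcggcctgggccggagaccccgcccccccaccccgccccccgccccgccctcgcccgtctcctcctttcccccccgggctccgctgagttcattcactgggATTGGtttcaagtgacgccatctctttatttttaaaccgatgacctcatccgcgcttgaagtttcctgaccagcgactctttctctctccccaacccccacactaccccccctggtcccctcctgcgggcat
Dusp1: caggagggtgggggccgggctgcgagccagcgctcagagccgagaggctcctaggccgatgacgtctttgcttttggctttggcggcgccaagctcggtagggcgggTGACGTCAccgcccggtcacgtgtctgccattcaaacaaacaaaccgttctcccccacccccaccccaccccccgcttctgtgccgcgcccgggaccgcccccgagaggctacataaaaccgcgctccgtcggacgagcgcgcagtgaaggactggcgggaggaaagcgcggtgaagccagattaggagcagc
The capitals in Dusp6 and Dusp16 are an inverted CCAAT box, whose first base lies 46 and 82 bases before the start. CCAAT on either strand also occurred in the windows of Dusp3 and Dusp7, which did not pass the test, and of Dusp10, which was not detected. Dusp4, which also rose, had no window. The box was therefore not limited to windows of genes that rose. It was in 5 of the 8 member windows and in 37.4% of the 32851 windows of this length. The capitals in Dusp1 are the cyclic AMP response element TGACGTCA, 143 bases before the start, which occurred in 1.79% of windows. None of the 8 member windows held the interferon-stimulated response element (3.44% of windows), the STAT-binding element TTCNNNGAA (8.3%), the AP-1 site TGANTCA (7.81%), the ETS site CCGGAAG (8.86%), an NF-kB site (8.46%) or the TATA box TATAAA (13.6%). The serum response element was found in the Dusp5 window, as a pair of abutting matches, and in 1.63% of all windows. These are matches of letters, not measured binding sites, and the ATTGG of the CCAAT box overlapped no other motif. The G and C content was 57.3% for Dusp6, 68.7% for Dusp16 and 67% for Dusp1, against a median of 52.7% over all windows.

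Dusp6 encodes MKP-3, a cytoplasmic phosphatase that prefers the ERK kinases and is a well-known read-out of ERK signalling. The table holds 3 probes for it. On the brightest, ILMN_2925711, the deposited intensities were 1008, 1048, 1009 and 1099 on scrambled replicates 1 to 4 and 1862, 1645, 1413 and 1704 on Ypel5 siRNA replicates 1 to 4. The normalized log2 values were 9.83, 9.87, 9.98 and 9.96 in the scrambled group and 10.41, 10.49, 10.38 and 10.43 in the Ypel5 siRNA group. Every Ypel5 siRNA array lay above every scrambled array before and after normalization. The group means were 9.91 ± 0.072 and 10.42 ± 0.047 (SD, n = 4 each), a rise of log2 0.51 (SE 0.055, 95% interval 0.39 to 0.64, limma adjusted p = 0.00415).

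The dimmer Dusp6 probe ILMN_1248537 gave log2 values of 7.09, 6.81, 6.79 and 6.71 on the scrambled and 7.76, 7.60, 7.79 and 7.67 on the Ypel5 siRNA arrays. Scrambled replicate 1 was the highest of its group, and the groups were again apart. The rise was log2 0.85 (SE 0.090, 95% interval 0.65 to 1.06, limma adjusted p = 0.00367), or 1.81-fold. By unadjusted p this probe ranked 26 and the brighter one ranked 28 of the 11364 tested. The size of the difference between these probes depended on background correction, since without it the changes were log2 0.41 for ILMN_1248537 and log2 0.45 for ILMN_2925711. The last probe, ILMN_2701321, was never detected and read log2 5.12 ± 0.29 and 4.97 ± 0.16 (SD, n = 4 each, exact permutation p = 0.429, limma adjusted p = 0.781 over all 25697 probes), and no fold is given for it. With only a common median per array in place of quantile normalization, the changes were log2 0.57 and log2 0.93, where the median change of all tested probes was log2 0.04. Both calls held under every setting that gave these probes a value, 19 for the brighter and 18 for the dimmer probe. The largest limma adjusted p over these settings was 0.0456 for the brighter and 0.0379 for the dimmer probe, near the threshold.

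Dusp7, also a cytoplasmic ERK phosphatase, had 1 probe, detected on all 8 arrays. Its log2 values ran from 8.45 to 8.69 on the scrambled and from 8.55 to 8.72 on the Ypel5 siRNA arrays, so that the groups overlapped. The change was log2 0.08 (SE 0.069, 95% interval -0.08 to 0.24, limma adjusted p = 0.601).

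Dusp16 encodes MKP-7, which prefers JNK and p38. On its brightest probe, ILMN_3112011, the deposited intensities were 870.4, 857.2, 710.5 and 825.7 on the scrambled and 1350, 1152, 1108 and 1229 on the Ypel5 siRNA arrays. The log2 values were 9.58, 9.53, 9.38 and 9.47 against 9.88, 9.90, 9.98 and 9.87. The lowest Ypel5 siRNA array lay above the highest scrambled array. The rise was log2 0.42 (SE 0.060, 95% interval 0.28 to 0.55, limma adjusted p = 0.0117), or 1.33-fold. It passed in 16 of 19 alternatives, among them the 8 fits without a single array. It was lost with a block by the number in the source names (limma adjusted p = 0.0572), among others.

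The Dusp16 probe ILMN_2754148 gave log2 8.29, 8.43, 8.21 and 8.23 on the scrambled and 8.60, 8.49, 8.39 and 8.47 on the Ypel5 siRNA arrays. Scrambled replicate 2 lay above Ypel5 siRNA replicate 3, so the groups overlapped. The change of log2 0.20 (SE 0.070, 95% interval 0.04 to 0.36, limma adjusted p = 0.165) did not pass, and it was smaller than that of the brighter probe. The remaining probe, ILMN_3037810, was detected on 0 arrays (log2 5.04 ± 0.19 and 5.04 ± 0.13, SD, n = 4 each, exact permutation p = 1, limma adjusted p = 0.996 over all 25697 probes). Without both arrays of replicate 1 the call of ILMN_3112011 was lost (log2 0.45, limma adjusted p = 0.0625).

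Dusp10 encodes MKP-5, which likewise prefers JNK and p38. Both of its probes were detected on 0 of the 8 arrays. ILMN_2818964 read log2 4.88 ± 0.15 and 5.19 ± 0.28, and ILMN_2678724 read log2 5.03 ± 0.097 and 5.18 ± 0.11 (SD, n = 4 each, exact permutation p = 0.114 and 0.143). Over all 25697 probes without the filter their limma adjusted p was 0.462 and 0.548, and no fold is given for a transcript below background in both groups.

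Dusp4 encodes MKP-2, an inducible nuclear phosphatase. Its brightest probe, ILMN_2689731, had deposited intensities of 1008, 1097, 993.6 and 1125 on the scrambled and 1628, 1413, 1313 and 1610 on the Ypel5 siRNA arrays. The log2 values were 9.83, 9.95, 9.96 and 10.00 against 10.19, 10.25, 10.27 and 10.34. The groups did not overlap. The rise was log2 0.33 (SE 0.058, 95% interval 0.19 to 0.46, limma adjusted p = 0.0226), or 1.26-fold.

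This call was close to the threshold and was lost in 10 of 19 alternatives, among them a block by the number in the source names (limma adjusted p = 0.1). It was also lost when scrambled replicate 1, 2 or 3 or Ypel5 siRNA replicate 2, 3 or 4 was left out, with limma adjusted p between 0.053 and 0.0633, while the change stayed between log2 0.29 and 0.35 over all 8 such fits. Without scrambled replicate 4 or Ypel5 siRNA replicate 1 it held. The other Dusp4 probes pointed up without passing. ILMN_2870965 gave log2 7.82, 7.92, 7.86 and 8.09 against 8.21, 8.29, 8.08 and 8.27, a change of log2 0.29 (SE 0.076, limma adjusted p = 0.0792), with scrambled replicate 4 just above Ypel5 siRNA replicate 3. ILMN_2608995 was detected on 2 of 4 scrambled and 4 of 4 Ypel5 siRNA arrays and gave log2 6.001, 5.51, 5.69 and 5.03 against 6.54, 5.75, 6.32 and 5.79. Its scrambled detections alone fell short of the filter of 4 arrays, which it met with the group where it was higher. Its direction is therefore no support for the Dusp4 call. Its change of log2 0.54 (SE 0.24, 95% interval -0.01 to 1.09, limma adjusted p = 0.261) had the widest interval of the 14 probes, and without background correction it was log2 0.15.

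**Figure D2:**
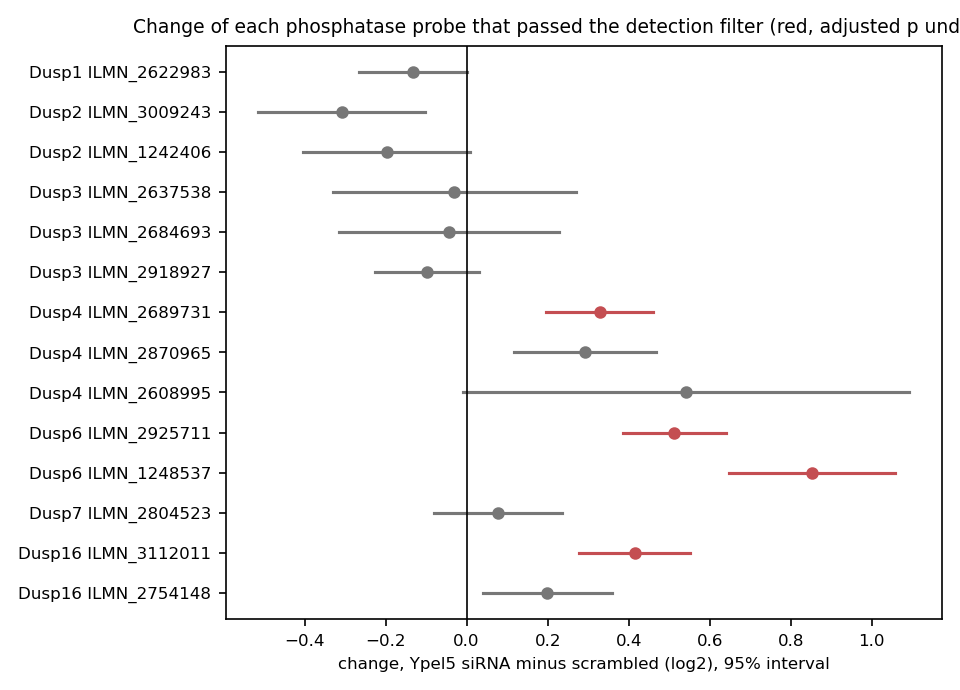
Change of each of the 14 probes on the horizontal axis (log2, Ypel5 siRNA minus scrambled), as points with 95% intervals from limma. The 4 probes in red, those of Dusp6 (both), Dusp16 ILMN_3112011 and Dusp4 ILMN_2689731, passed an adjusted p of 0.05, and all probes of Dusp1, Dusp2 and Dusp3 lie below 0.

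Dusp1 encodes MKP-1, the immediate-early nuclear phosphatase of p38 and JNK. Its single probe had deposited intensities of 1308, 1357, 1207 and 1414 on the scrambled and 1525, 1324, 1250 and 1534 on the Ypel5 siRNA arrays. After normalization these became log2 10.25, 10.29, 10.27 and 10.37 against 10.07, 10.14, 10.19 and 10.26. The mean of the deposited intensities was higher in the Ypel5 siRNA group (1408 ± 143 against 1321 ± 88, SD, n = 4 each), while the normalized mean was lower, and the groups overlapped on both scales. The change of log2 -0.13 (SE 0.058, 95% interval -0.27 to 0.00, limma adjusted p = 0.258) did not pass.

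Dusp2 encodes PAC-1, a nuclear phosphatase of activated immune cells, and was read by 2 probes. ILMN_3009243 gave log2 9.51, 9.41, 9.41 and 9.64 on the scrambled and 9.34, 9.16, 9.24 and 8.98 on the Ypel5 siRNA arrays. After normalization all 4 scrambled arrays lay above all 4 Ypel5 siRNA arrays, with Ypel5 siRNA replicate 4 the lowest. The deposited intensities overlapped between the groups. They were 834.6, 800.8, 721.5 and 921.1 on the scrambled and 989.3, 759.8, 732.2 and 750.3 on the Ypel5 siRNA arrays. The change was log2 -0.31 (SE 0.090, 95% interval -0.51 to -0.10, limma adjusted p = 0.107), which missed the threshold. It passed in 3 of 19 alternatives, among them without background correction (log2 -0.24, limma adjusted p = 0.0351). The others were the authors' normalized values and a trended, robust variance model (limma adjusted p = 0.0271). In 16 it did not pass, with limma adjusted p up to 0.344 with only a common median per array. All 8 fits without a single array were among these 16 (limma adjusted p 0.0966 to 0.202). The other probe, ILMN_1242406, overlapped between groups, at log2 -0.20 (SE 0.090, 95% interval -0.40 to 0.01, limma adjusted p = 0.272). Its mean deposited intensity was higher in the Ypel5 siRNA group (419.3 ± 30.1 against 395.8 ± 16.7, SD, n = 4 each).

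Dusp3 encodes VHR, a small atypical member that lacks the kinase-binding domain of the others. Its 3 probes were detected on all 8 arrays, and their groups overlapped. The changes were log2 -0.03 for ILMN_2637538 (95% interval -0.33 to 0.27), log2 -0.04 for ILMN_2684693 (-0.32 to 0.23) and log2 -0.10 for ILMN_2918927 (-0.23 to 0.03), with limma adjusted p between 0.393 and 0.933. Within the Ypel5 siRNA group ILMN_2637538 ranged from log2 8.48 on replicate 4 to 9.01 on replicate 2, wider than the 8.53 to 8.89 of the scrambled group. When arrays were scaled to a common median alone, the signs of ILMN_2637538 and ILMN_2684693 turned, to log2 0.05 and log2 0.02.

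**Figure D3:**
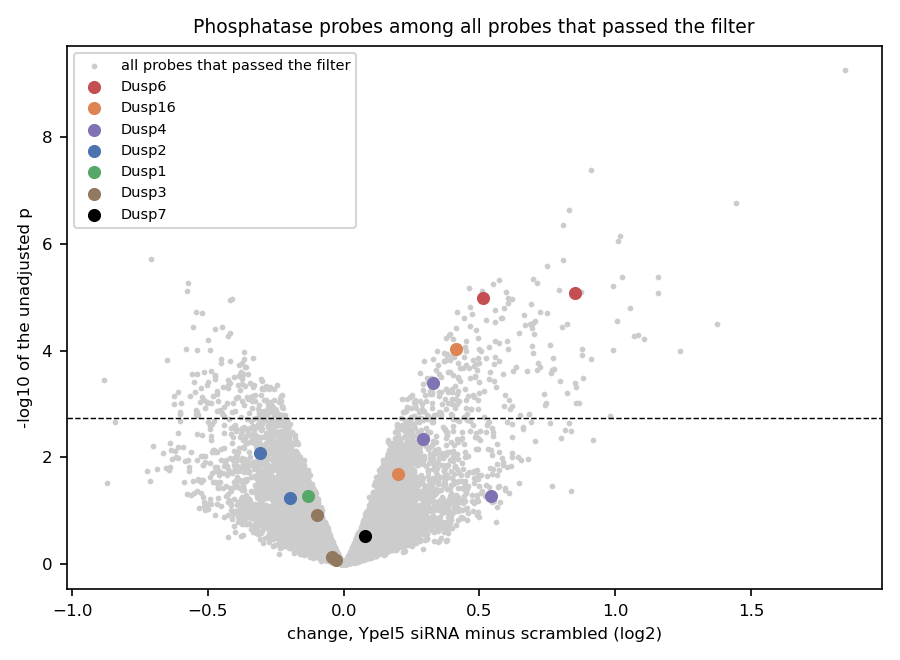
Change (log2, horizontal axis) against the negative log10 of the unadjusted p (vertical axis) for the 11364 probes that passed the detection filter, in grey, with the phosphatase probes coloured by gene. The dashed line marks the largest unadjusted p among probes past the adjusted threshold. The Dusp6, Dusp16 and Dusp4 probes above it lie to the right of 0, and those of Dusp1, Dusp2, Dusp3 and Dusp7 lie below it.

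The kinases, activators and targets around these phosphatases were read from 9 pathway lists, with each gene represented by its brightest tested probe. Of 119 listed genes 66 were measured, of which 1 rose, 0 fell and 65 did not pass, against 3.96% of all 8154 genes past the threshold, 2.50% higher and 1.46% lower. At an unadjusted p under 0.05 in the limma fit, 8 of the 66 were higher and 7 lower, against 20.4% of all genes in either direction, 10.4% higher and 9.98% lower, so that the pathway genes lay near the background. Their median change was log2 0.03. The lists, too, were chosen with earlier results of these data known. The gene that rose was Mapk11, which encodes p38 beta, at log2 7.91 ± 0.12 against 8.36 ± 0.12 (SD, n = 4 each), a rise of log2 0.45 (SE 0.082, limma adjusted p = 0.0261). The call of Mapk11 was lost in 6 of the 8 fits without 1 array (limma adjusted p up to 0.073) and held without Ypel5 siRNA replicate 2 or scrambled replicate 3.

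Of 8 measured MAP kinases the other 7 did not pass. Some kinases on which these phosphatases act are given here for that role, outside the rule for named genes and after their values were seen. ERK1 (Mapk3) was at log2 0.04, JNK1 (Mapk8) at log2 -0.04, JNK2 (Mapk9) at log2 0.09 and p38 alpha (Mapk14) at log2 -0.06. Among 6 measured MAP kinase kinases 0 passed, with 2 higher at an unadjusted p under 0.05 in the limma fit, Map2k3 (log2 0.14) and Map2k1 (log2 0.31), while Map2k7 was at log2 -0.16. Of 10 measured MAP kinase kinase kinases 0 passed, with 1 higher and 3 lower at an unadjusted p under 0.05. Map3k14 was at log2 -0.24 and Map3k20 at log2 0.31, both with limma adjusted p above 0.1. Of 7 measured kinases that MAP kinases activate 0 passed, and Rps6ka5, which encodes MSK1, came nearest at log2 0.24 (limma adjusted p = 0.0539) and was the 1 gene with an unadjusted p under 0.05. Mknk1 was at log2 0.14 and Rps6ka1 at log2 0.11. Of 4 measured scaffold genes 0 passed, with Arrb1 at log2 -0.29 (limma adjusted p = 0.104) the 1 gene with an unadjusted p under 0.05. Arrb1, which encodes beta-arrestin 1, had 4 further tested probes, of which ILMN_1229853 fell (log2 -0.51, limma adjusted p = 0.0403). Arrb2 was at log2 0.09 and Iqgap1 at log2 0.06.

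Immediate-early and MAP kinase target genes did not pass in either direction, with 12 measured, 0 called and a median of log2 -0.03. At an unadjusted p under 0.05 in the limma fit, 3 were higher and 2 lower. The ETS factor gene Elk3 was at log2 0.20 (SE 0.046, adjusted p = 0.0568), the zinc finger factor gene Egr1 at log2 -0.26 (SE 0.067, adjusted p = 0.0753) and Phlda1 at log2 -0.37 (SE 0.10, adjusted p = 0.0949). The groups did not overlap for Elk3 or Egr1. Of the Sprouty and Spred genes, which encode feedback inhibitors of the ERK pathway, 3 were measured and 0 passed, with 0 at an unadjusted p under 0.05 in limma. Among these, Spred1 was at log2 0.03 (SE 0.056), Spry4 at log2 0.14 (SE 0.18) and Spred2 at log2 -0.24 (SE 0.47). Only Spred1 was detected on all 8 arrays, while Spry4 was detected on 4 and Spred2 on 5.

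Other genes of phosphatase families did not pass either. Of 20 further genes of the dual specificity phosphatase family 8 were measured and 0 passed, with 0 at an unadjusted p under 0.05 in limma. Their changes had a median of log2 -0.03 and a range from log2 -0.21 (Dusp28) to log2 0.21 (Dusp22). Dusp11 was at log2 -0.11 (SE 0.069). Of 9 tyrosine and serine/threonine phosphatase genes that act on MAP kinases 8 were measured and 0 passed, with 0 at an unadjusted p under 0.05. Among them Ptpn5 was at log2 0.28 (limma adjusted p = 0.256), Ppp2ca at log2 0.11 (limma adjusted p = 0.28) and Ppp2r1a at log2 0.06.

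For the brightest probe of each gene that rose, the 3 probes of other genes with the highest Pearson r of log2 intensity over the 8 arrays were taken. These correlations are descriptive, since the 8 arrays fall into 2 siRNA groups and any gene that differs between them correlates. Dusp6 was most like Trib3 (r = 0.988), a pseudokinase gene, Slc11a1 (r = 0.988), which encodes a phagosomal metal transporter, and Map7d1 (r = 0.987). Trib3 rose by log2 0.72 and Slc11a1 by log2 0.41, while Map7d1 was at log2 0.12 and did not pass (limma adjusted p = 0.177). Dusp16 was most like Xdh (r = 0.99), which encodes xanthine dehydrogenase, Hfe (r = 0.983) and Tbc1d2 (r = 0.981). These rose by log2 0.75, 0.33 and 0.58. Dusp4 was most like Pskh1 (r = 0.992), Gch1 (r = 0.989), which encodes GTP cyclohydrolase, and Tiam1 (r = 0.978), an activator of the GTPase Rac. These rose by log2 0.27, 0.37 and 0.71.

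**Figure D4:**
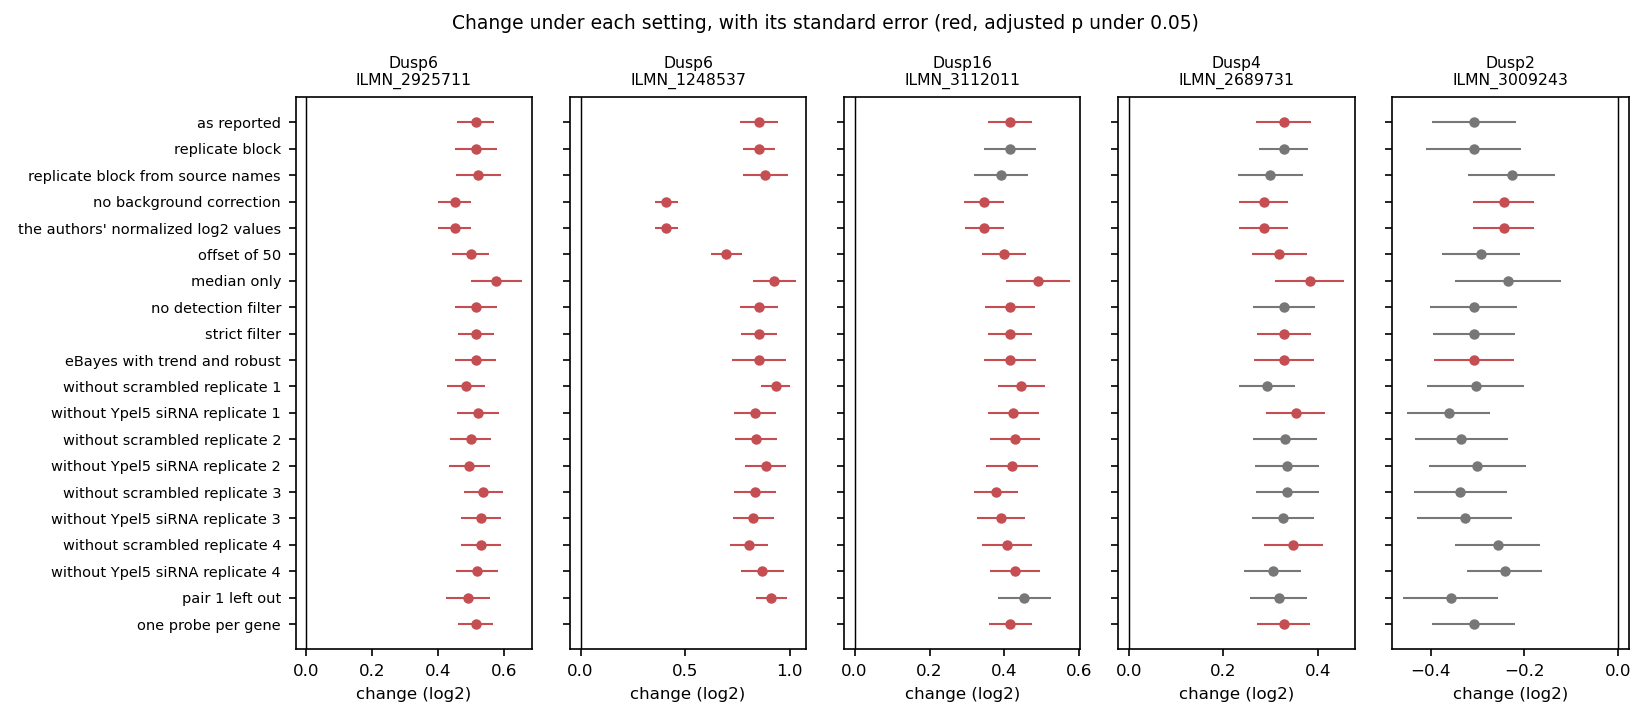
Change (log2, horizontal axis) with its standard error for 5 phosphatase probes under the reported setting and each alternative that gave a value, listed on the vertical axis, with adjusted p under 0.05 in red. Both Dusp6 probes stay red throughout, Dusp16 turns grey under 3 alternatives, Dusp4 under 10, and Dusp2 turns red under 3.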

How the data were processed

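Per the labels' protocols, RNA was column-purified, treated with DNase and amplified to biotinylated cRNA for Illumina arrays. Per the file headers, each probe and array has a linear intensity and a detection p-value in the deposited non-normalized table. The authors' normalized log2 values, also deposited, served as an alternative, and the submitters' processing notes name RMA. Source names gave the groups, and descriptions gave the replicate numbers. Other numbers in the source names were tried as a block.

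Background correction and quantile normalization used neqc (limma 3.58.1, R 4.3.3) with an offset of 16. This infers the background from the detection p-values. The 11364 probes (44.2%) with detection p under 0.05 on at least 4 arrays were fitted with lmFit and eBayes without a block, two-sided. Adjustment ran over all fitted probes, because members were read probe by probe. Outdated names were replaced through RefSeq synonyms (GRCm38.p6), with 20734 names current, 3875 replaced and 1088 left as in the file. Single probes under the filter were compared by exact permutation, and in place of a p adjusted over these probes the adjusted p of a fit over all 25697 is given. The array's genome build is not given in the sources used here. The fit was tested on data with known changes. The members and lists were chosen with earlier results of these data known. The named genes are all members, per pathway list the genes past the threshold and otherwise up to 3 with the smallest p, the 3 most similar probes per risen member, and Ypel5, and some genes that this rule takes are not reported here. The alternatives changed the block, background correction, offset, normalization, filter, probe choice, variance model and arrays.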

Additional observations from a re-analysis of the deposited data

How the results depend on the processing

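The 14 probes had 258 values under 19 alternatives, of which 235 kept their direction and side of the threshold. The 235 include values of probes that passed neither in the reported fit nor in the alternative. All 13 values that lost a call belonged to called probes, Dusp16 ILMN_3112011 (3 of 19) and Dusp4 ILMN_2689731 (10 of 19). The count of 4 phosphatase probes past the threshold became 2 with a replicate block, 2 with a block by the source names' numbers and 2 without both arrays of replicate 1, and ranged from 3 to 4 when 1 array was left out. Deviations from the group means correlated at 0.041, 0.0045, 0.0035 and 0.16 between same-numbered arrays, not all over 0.1, so the numbers were not taken to pair them. The highest correlation with a Ypel5 siRNA array of another number was 0.022, 0.11, 0.017 and 0.014. Same-numbered arrays were thus closer for replicates 1 and 4 only, which does not settle the pairing. With the replicate block the Dusp6 probes passed (limma adjusted p = 0.0456 for ILMN_2925711 and 0.0379 for ILMN_1248537). Dusp16 ILMN_3112011 (log2 0.42, limma adjusted p = 0.0744) and Dusp4 ILMN_2689731 (log2 0.33, limma adjusted p = 0.0656) did not pass with it. With a block by the source names' numbers, in which number 1 holds 3 scrambled and 1 Ypel5 siRNA arrays and number 2 the reverse, these 2 probes did not pass either, at limma adjusted p of 0.0572 and 0.1. Without the detection filter Dusp4 did not pass (limma adjusted p = 0.0786). The cause of these lost calls was not tested. The Dusp3 changes reversed to log2 0.051 for ILMN_2637538 and 0.022 for ILMN_2684693 with only a common median per array, and ranged from -0.13 to 0.048 and from -0.16 to 0.045 when 1 array was left out. Over all probes, 256 higher and 165 lower became 82 and 22 with the replicate block, 90 and 31 with the source names' block, 444 and 342 without background correction, 445 and 342 with the authors' values, 204 and 30 with a common median, 130 and 28 without the filter, 499 and 407 with a trended robust model, and 52 and 10 without both arrays of replicate 1. Leaving out 1 array gave 133 to 177 higher and 39 to 86 lower. The share of higher calls, 60.8%, was 87.2% with a common median. The 1 pathway gene past the threshold became 0 with either block, without the filter and without both replicate 1 arrays, 5 without background correction and with the authors' values, 3 with the strict filter or 1 probe a gene, 6 with the robust model, and 0 to 1 without 1 array. Genes added there included Elk3, Egr1, Phlda1 and Rps6ka5. Signal near background limits Dusp10, ILMN_2701321 and ILMN_3037810, for which no fold could be given.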
